A study of Homo sapiens with 8 samples.

Results

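The S100 family was followed here through 8 genes, S100A2, S100A3, S100A4, S100A6, S100A10, S100A11, S100A13 and S100A16, in single-cell RNA-seq of SUM159, a mesenchymal-like triple-negative breast cancer line. The genes are family members by name and were chosen with earlier results of these data known. They are 8 of the 18955 genes in the count table. Every library came from cells that carried a library of DNA barcodes. Pre was the population before treatment. DMSO, Tax, JQ1-A and JQ1+Tax were passaged in vehicle, 0.6 nM paclitaxel, 100 nM JQ1 or both drugs, and Pal, JQ1-B and JQ1+Pal in 160 nM palbociclib, 100 nM JQ1 or both drugs, for up to 18 passages. JQ1 inhibits BET bromodomain proteins, palbociclib inhibits the cyclin D-dependent kinases and paclitaxel stabilizes microtubules. Triplicate cultures of a condition were pooled before encapsulation, and 1 JQ1+Pal culture was lost during passaging, so each condition is 1 library of surviving, selected cells and JQ1 alone is the only exposure made in 2 experiments. The design asks which genes differ between libraries with and without each drug, and whether a second drug adds to JQ1.

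S100 proteins are small calcium-binding proteins that carry a pair of EF-hand motifs and work mostly as dimers. They bind target proteins such as annexins, myosin and p53, and several are also released from cells and act on surface receptors. In breast cancer S100A4 is known for its link to motility and metastasis, and the complex of S100A10 with annexin A2 for plasminogen activation at the cell surface.

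The 8 libraries held 459 (DMSO) to 1024 (JQ1+Pal) cells and 10621159 to 24240835 UMIs (unique molecular identifiers, each counting 1 captured transcript), with medians of 20664 to 22503 UMIs a cell. There were 13 cell barcode sequences that occurred in more than 1 library, which touched 1 to 6 cells a library. VIM was at 3279 to 4502 CPM (UMIs per 1000000 UMIs of the library) and KRT18 at 313 to 669 CPM, ESR1, PGR, EPCAM, PTPRC, CD14 and HBA1 were each under 1 CPM in every library, and ERBB2 was at 5.32 to 12.0 CPM. The median mitochondrial share of a cell's UMIs was 3.72 to 3.96% in Pre, DMSO and Tax, 5.58% in Pal and 4.69 to 7.18% in the 4 JQ1 libraries. The summed CPM of 20 proliferation genes was 1095 (Pal) to 2368 (Tax) without JQ1 and 928 (JQ1+Pal) to 1190 (JQ1-A) with it. The part of either in the S100 values was not tested.

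All 8 genes lie on the minus strand of chromosome 1, at 1q21. On GRCh37, the build behind the counts, S100A10 lies at chr1:151955391-151966335 and S100A11 at chr1:152004982-152020383, with 38.6 kb between them. The other 6 genes lie 1.49 Mb further along in a block of 96.8 kb, in the order S100A6 (chr1:153507075-153508720), S100A4 (chr1:153516089-153522612), S100A3 (chr1:153519805-153521734), S100A2 (chr1:153533584-153540366), S100A16 (chr1:153579362-153585621) and S100A13 (chr1:153591263-153603836). S100A3 lies inside the span of S100A4 on the same strand, and the annotated exons of these genes shared 0 bases. The exons of S100A13 shared 235 bases with those of S100A1, on the other strand.

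The 250 bases before the annotated start are shown for the 3 genes that were lower in every JQ1 library, S100A2, S100A3 and S100A11, and for S100A10, which lies next to S100A11 and moved the other way. They are RefSeq sequences on GRCh38.p14, minus strand, and run 5′ to 3′ up to the start. Capitals mark matches, on either strand, to the AP-1 motif TGANTCA or the GC box GGGCGG. The windows are chr1:153565845-153566094 for the upstream one of the S100A2 starts, chr1:153549259-153549508 for S100A3, chr1:152037005-152037254 for S100A11 and chr1:151993860-151994109 for S100A10.
S100A2: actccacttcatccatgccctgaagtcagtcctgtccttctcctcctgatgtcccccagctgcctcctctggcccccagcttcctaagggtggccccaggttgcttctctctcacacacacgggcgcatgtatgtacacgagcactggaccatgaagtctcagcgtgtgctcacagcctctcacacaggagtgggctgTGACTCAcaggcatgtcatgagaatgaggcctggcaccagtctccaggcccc
S100A3: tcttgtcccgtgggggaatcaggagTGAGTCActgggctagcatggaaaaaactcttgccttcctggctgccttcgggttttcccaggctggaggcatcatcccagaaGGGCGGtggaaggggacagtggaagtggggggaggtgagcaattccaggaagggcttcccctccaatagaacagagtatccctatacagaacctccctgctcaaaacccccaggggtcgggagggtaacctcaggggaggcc
S100A11: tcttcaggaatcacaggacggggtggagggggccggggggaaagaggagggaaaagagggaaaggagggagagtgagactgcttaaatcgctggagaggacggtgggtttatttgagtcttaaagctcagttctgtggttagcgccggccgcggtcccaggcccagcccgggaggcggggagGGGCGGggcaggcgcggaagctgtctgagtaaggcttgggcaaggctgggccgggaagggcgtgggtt
S100A10: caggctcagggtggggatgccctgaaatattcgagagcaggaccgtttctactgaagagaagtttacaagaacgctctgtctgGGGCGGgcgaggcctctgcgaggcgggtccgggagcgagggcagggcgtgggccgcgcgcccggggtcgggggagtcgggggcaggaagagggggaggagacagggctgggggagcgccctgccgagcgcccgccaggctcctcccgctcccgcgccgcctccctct
An AP-1 match stood 52 bases before the start of S100A2 and 225 bases before that of S100A3, and in no other window of the 8 genes, which have 12 windows in all. AP-1 matches occurred in 6.57% of the 35116 promoter windows of the same length in the RefSeq table. GC box matches, which occurred in 42.6% of all windows, were found before S100A3, S100A6, S100A10, S100A11, S100A13 and S100A16. TATAAA, found in 10.7% of all windows, stood 31 bases before the start of S100A4 and 29 bases before 1 start of S100A13. The E-box CACGTG (6.34% of all windows) and the NF-kB motif (5.21%) matched none of the 12 windows.

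Together the 8 genes took 1.05% (JQ1+Pal) to 1.35% (DMSO) of a library's UMIs. S100A6 alone made up 52.9 to 59.0% of that, and ranked 11 to 25 among all genes by library. UMIs mark 3′ ends, so levels of different genes were compared as CPM with no division by length. By mean CPM over the 8 libraries the order was S100A6, S100A10, S100A4, S100A11, S100A16, S100A13, S100A2 and S100A3. S100A10 was above S100A4 in every library, but S100A2 and S100A3 exchanged places between libraries, S100A3 being the higher in DMSO and Pal. The highest library was above the lowest by 11.4 times for S100A2, 5.72 times for S100A3, 2.26 times for S100A11, 2.03 times for S100A16 and 1.40 to 1.53 times for the other 4, where the median over the 9288 genes tested was 1.78 times.

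**Figure D1:**
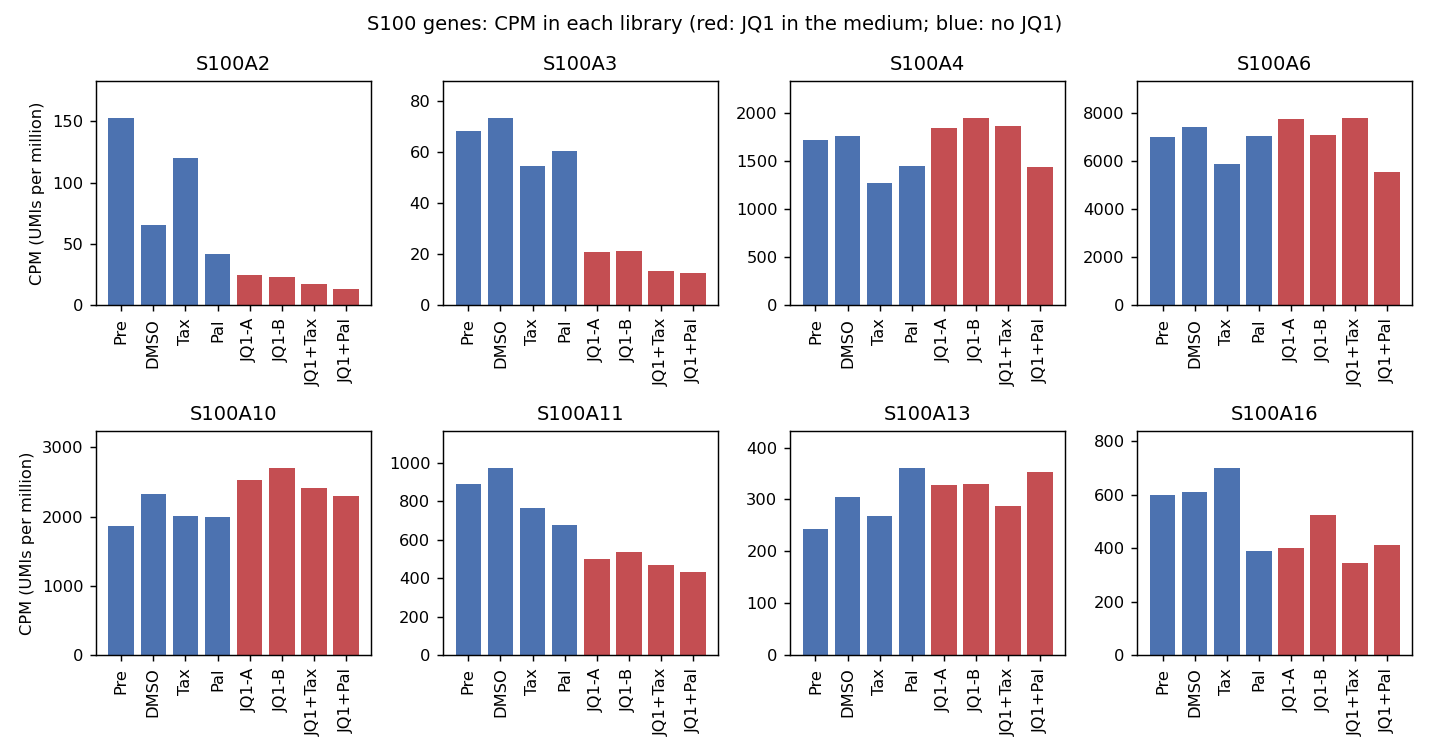
Bars give the CPM of each S100 gene in each of the 8 libraries, with 1 bar a library, red with JQ1 and blue without, and a separate linear axis from 0 for each gene. S100A2, S100A3 and S100A11 are lower in all 4 red bars than in any blue one, while S100A6 spans 5561 to 7767 CPM with both colours mixed.

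In a fit over all 8 libraries S100A2, S100A3 and S100A11 were called lower with JQ1, and S100A4, S100A10 and S100A13 higher relative to the other genes. Exposure to each drug was tested with edgeR's quasi-likelihood test on the UMIs summed per library, with the other drugs as terms. P-values were adjusted by Benjamini-Hochberg over all 9288 genes. Passaging was not a term, and Pre, the population before treatment, counted among the libraries without JQ1. For JQ1, in 4 libraries against 4, 3 of the 8 S100 genes were called lower, 3 higher and 2 not, at an adjusted p under 0.05. Of all genes tested, 37.6% were called for JQ1, 17.8% higher and 19.7% lower. The libraries with and without JQ1 did not overlap in CPM for 3 of the 8 genes, and for 28.2% of all genes. The median log2 fold change of the 8 was 0.00, the same as over all genes.

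S100A2, a mainly nuclear member known to bind p53, changed the most. Its level was 152 CPM in Pre, 65.8 in DMSO, 120 in Tax and 41.7 in Pal, and 24.4 CPM in JQ1-A, 22.8 in JQ1-B, 17.2 in JQ1+Tax and 13.4 in JQ1+Pal. All 4 JQ1 libraries were below Pal, the lowest of the others, and the libraries without JQ1 were far apart among themselves, at 94.9 ± 50.3 CPM (SD, n = 4) against 19.4 ± 5.09 CPM (n = 4). The fitted log2 fold change with JQ1 was -2.02 ± 0.26 (SE, adjusted p = 0.00174), a level 0.247 times that without JQ1.

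S100A3, a cysteine-rich member that binds zinc and is abundant in the hair cuticle, fell with JQ1 almost as far and more evenly. It was at 68.4 CPM in Pre, 73.2 in DMSO, 54.5 in Tax and 60.4 in Pal, against 20.9 in JQ1-A, 21.2 in JQ1-B, 13.6 in JQ1+Tax and 12.8 in JQ1+Pal. The lowest library without JQ1 was above the highest with it, and the means were 64.1 ± 8.30 and 17.1 ± 4.56 CPM (SD, n = 4 each). The log2 fold change was -1.74 ± 0.13 (SE, adjusted p = 0.000527). S100A4, whose span holds S100A3, did not fall.

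S100A10 and S100A11, known for their complexes with annexins A2 and A1, were called in opposite directions. S100A11 was at 888 CPM in Pre, 972 in DMSO, 766 in Tax and 676 in Pal, and at 498, 537, 469 and 430 CPM in JQ1-A, JQ1-B, JQ1+Tax and JQ1+Pal. The groups did not overlap, and the log2 fold change was -0.57 ± 0.08 (SE, adjusted p = 0.00241). With the experiment as a further term the value was -0.58 and the adjusted p 0.0596, and in 3 matched pairs, whose libraries differ by JQ1 alone, -0.59 and 0.0614, so the call was lost with little change in size.

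S100A10, or p11, binds annexin A2 and no calcium. It was at 1867 CPM in Pre, 2328 in DMSO, 2008 in Tax and 1998 in Pal, and at 2527 in JQ1-A, 2699 in JQ1-B, 2410 in JQ1+Tax and 2298 in JQ1+Pal. DMSO was above JQ1+Pal, so the groups overlapped by 1 library on each side. S100A10 rose by 0.47 ± 0.10 on the log2 scale (SE; adjusted p = 0.00994), and the call was lost with the experiment as a term (0.39, adjusted p = 0.136) and in the matched pairs (0.38, adjusted p = 0.139). Scaled by library totals in place of TMM (trimmed mean of M-values, which sets most genes to no change), the median JQ1 log2 fold change over all genes went from 0.00 to -0.20. The share of JQ1 calls that were higher then went from 47.4 to 22.9%, and S100A10 was at 0.27.

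ANXA2, the partner of S100A10, was at 1502, 1992, 1615 and 1346 CPM in Pre, DMSO, Tax and Pal and at 1645, 1735, 1748 and 1781 CPM in JQ1-A, JQ1-B, JQ1+Tax and JQ1+Pal. Its log2 fold change of 0.30 ± 0.11 (SE) with JQ1 was not called (adjusted p = 0.0599), with the JQ1 libraries inside the range of the others. ANXA1, which S100A11 binds, fell with JQ1 by 0.48 ± 0.13 on the log2 scale (adjusted p = 0.0213), with no overlap between the groups. Pal (102 CPM) was close to JQ1-B (96.5 CPM), with Pre, DMSO and Tax at 126 to 191 CPM.

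S100A4, known as metastasin, binds non-muscle myosin heavy chain IIA. It was at 1718 CPM in Pre, 1753 in DMSO, 1269 in Tax and 1448 in Pal, and at 1840, 1940, 1859 and 1431 CPM in JQ1-A, JQ1-B, JQ1+Tax and JQ1+Pal. JQ1-A, JQ1-B and JQ1+Tax were above all libraries without JQ1, and JQ1+Pal lay below Pal. The log2 fold change was 0.39 ± 0.12 (SE, adjusted p = 0.0376), but the call held in 2 of the 8 refits that left out 1 library (without Pal, without JQ1+Pal), at 0.24 to 0.54. It was also lost with library totals (0.19, adjusted p = 0.146), with the experiment as a term (0.39, adjusted p = 0.205) and in the matched pairs (0.39, adjusted p = 0.209).

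S100A6, or calcyclin, was the most abundant member in every library, at 6988 CPM in Pre, 7402 in DMSO, 5870 in Tax, 7026 in Pal, 7763 in JQ1-A, 7066 in JQ1-B, 7767 in JQ1+Tax and 5561 in JQ1+Pal. The lowest and the highest of the 8 libraries were both JQ1 combinations. The JQ1 log2 fold change was 0.24 ± 0.15 (SE, adjusted p = 0.228) and was not called with all libraries. Without Pal it was 0.44 (adjusted p = 0.00968) and without JQ1+Pal 0.41 (adjusted p = 0.0124), both past the threshold.

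S100A13, which takes part in the export of FGF1 from cells, was at 243 CPM in Pre, 304 in DMSO, 268 in Tax and 360 in Pal, and at 328, 330, 288 and 354 CPM in JQ1-A, JQ1-B, JQ1+Tax and JQ1+Pal. The groups overlapped, with the highest library, Pal, among those without JQ1. S100A13 rose by 0.35 ± 0.11 on the log2 scale (adjusted p = 0.0428), a call kept in 2 of 8 refits without 1 library (without Pal, without JQ1+Pal), which gave 0.26 to 0.49. It was also lost with library totals (0.15, adjusted p = 0.281), with the experiment as a term (0.25, adjusted p = 0.284) and in the matched pairs (0.25, adjusted p = 0.289).

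S100A16, a widely expressed member, was at 599 CPM in Pre, 609 in DMSO, 700 in Tax and 390 in Pal, and at 400 in JQ1-A, 523 in JQ1-B, 346 in JQ1+Tax and 411 in JQ1+Pal. Pal lay among the JQ1 libraries, and the log2 fold change of -0.23 ± 0.15 (SE) was not called (adjusted p = 0.233). Within the 4 libraries of the JQ1 and paclitaxel experiment alone it was -0.52 (adjusted p = 0.0177).

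**Figure D2:**
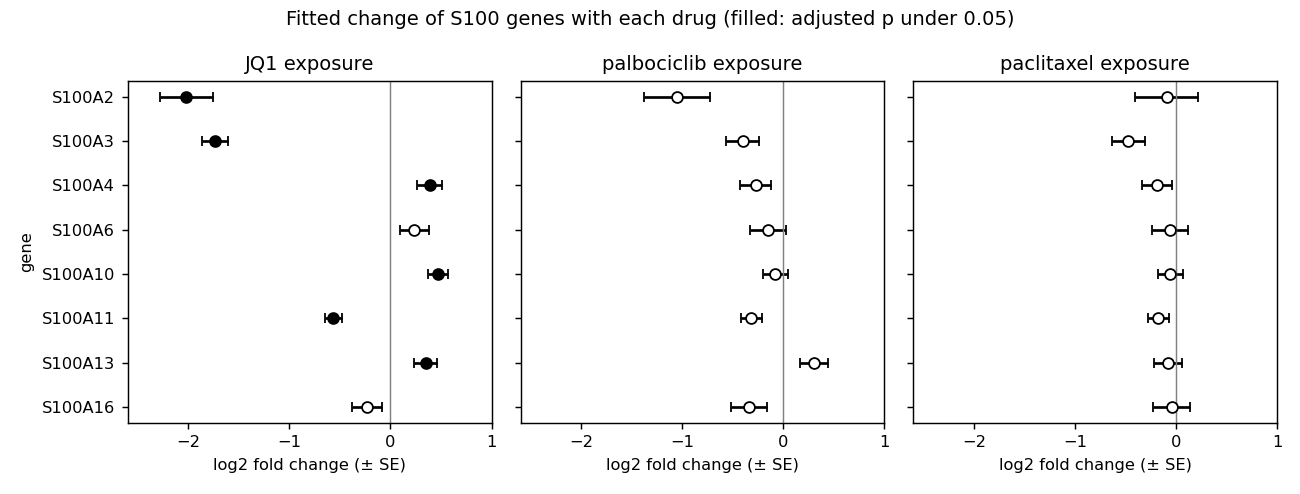
Points give the fitted log2 fold change of each S100 gene for JQ1, in 4 libraries of 8, and for palbociclib and paclitaxel, each in 2 of 8, with bars of 1 SE; filled points have an adjusted p under 0.05. With JQ1 the values run from -2.02 (S100A2) to 0.47 (S100A10) and 6 are filled, and none is filled for palbociclib or paclitaxel.

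No S100 gene was called for palbociclib, in 2 libraries against 6, where 0.28% of all genes were called. Pal and JQ1+Pal came from the same experiment, in which only JQ1-B was without palbociclib. At an unadjusted p under 0.05 there were 3 of the 8, S100A2, S100A3 and S100A11, where 22.1% of all genes were, and DESeq2 called 1, S100A2, where it called 5.54% of all genes. The palbociclib log2 fold change for S100A2 was -1.05 ± 0.33 (SE, adjusted p = 0.126 by edgeR and 0.0143 by DESeq2). S100A11 had -0.32 ± 0.10 (adjusted p = 0.134). S100A13 was the only member whose palbociclib libraries, at 360 and 354 CPM, were both above the other 6, which reached 330 CPM, and its log2 fold change was 0.30 ± 0.14 (adjusted p = 0.240).

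No S100 gene was called for paclitaxel either, by edgeR or DESeq2, where 0% of all 9288 genes were called (395 or 4.25% at an unadjusted p under 0.05, and 9 or 0.0969% by DESeq2). Tax and JQ1+Tax likewise came from the same experiment, beside DMSO and JQ1-A. The log2 fold changes ran from -0.47 ± 0.16 (S100A3, the 1 member at an unadjusted p under 0.05, adjusted p = 0.885) to -0.05 ± 0.18 (S100A16). S100A2 had -0.10 ± 0.31 (adjusted p = 0.969), with Tax at 1.82 times DMSO and JQ1+Tax at 0.703 times JQ1-A.

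Whether a second drug acted differently with JQ1 than without it was tested by interaction terms, on 2 residual degrees of freedom. None of the 8 genes was called for JQ1 by palbociclib, where 0.0108% of all genes were called, or for JQ1 by paclitaxel, with 0.388%. DESeq2 called none of the 8 either, with 0.355 and 0.861% of all genes. At an unadjusted p under 0.05 there were 2 and 3 members, beside 17% of all genes for each interaction. The values farthest from 0 in the first were -0.67 ± 0.20 (SE) for S100A3 and -0.56 ± 0.17 for S100A6, both with an adjusted p of 0.169. In the second they were -0.58 ± 0.22 for S100A16 (adjusted p = 0.239) and -0.54 ± 0.54 for S100A2 (adjusted p = 0.633).

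Single libraries were also set side by side, without a test, as ratios of CPM with 95% intervals that cover counting error only. In DMSO S100A2 was at 0.432 (0.396 to 0.471) of its level in Pre, and it was the only one of the 8 genes past 1.5 times, as were 4.17% of all genes. S100A10 and S100A13 were at 1.25 times their Pre level. Between JQ1-B and JQ1-A, the same exposure made in different experiments, none of the 8 and 1.7% of all genes were past 1.5 times, and the largest ratio was 1.31 (1.27 to 1.35) for S100A16.

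Against DMSO, 4 of the 8 genes were past 1.5 times in JQ1-A, with 30.3% of all genes. These were S100A3 at 0.286 (0.251 to 0.325), S100A2 at 0.371 (0.327 to 0.420), S100A11 at 0.512 (0.498 to 0.528) and S100A16 at 0.656 (0.634 to 0.679). In Pal 2 were past it, with 20.3% of all genes, S100A2 at 0.633 (0.569 to 0.705) and S100A16 at 0.640 (0.618 to 0.663). In Tax it was 1, with 14.9% of all genes, S100A2 at 1.82 (1.67 to 1.99), in the opposite direction. S100A4, S100A10 and S100A13, called higher with JQ1 in the fit, were close to DMSO in JQ1-A by CPM without TMM. They were at 1.05 (1.03 to 1.07), 1.09 (1.07 to 1.10) and 1.08 (1.03 to 1.13). The comparisons of JQ1-A, Pal and Tax share the DMSO library. DMSO belonged to the JQ1 and paclitaxel experiment and Pal to the JQ1 and palbociclib experiment, so Pal and DMSO differ by experiment as well as by drug.

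JQ1 was also compared on top of a drug. From Tax to JQ1+Tax 4 of the 8 were past 1.5 times, with 41% of all genes: S100A2 at 0.143 (0.125 to 0.163), S100A3 at 0.250 (0.213 to 0.291), S100A16 at 0.494 (0.478 to 0.510) and S100A11 at 0.611 (0.594 to 0.630). From Pal to JQ1+Pal 3 were, with 15.2% of all genes: S100A3 at 0.212 (0.186 to 0.241), S100A2 at 0.322 (0.281 to 0.368) and S100A11 at 0.635 (0.619 to 0.653), while S100A16 was at 1.05 (1.02 to 1.09). S100A6 was at 1.32 (1.31 to 1.33) from Tax to JQ1+Tax and 0.791 (0.785 to 0.798) from Pal to JQ1+Pal. S100A4, S100A10 and S100A13 were at 1.46, 1.20 and 1.07 from Tax to JQ1+Tax. From Pal to JQ1+Pal they were at 0.989, 1.15 and 0.981.

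A second drug was compared on top of JQ1 in the same way. From JQ1-A to JQ1+Tax none of the 8 was past 1.5 times, with 2.62% of all genes, though S100A3 was at 0.651 (0.543 to 0.779) and S100A2 at 0.703 (0.597 to 0.826). From JQ1-B to JQ1+Pal 2 were, with 6.7% of all genes, S100A2 at 0.588 (0.509 to 0.679) and S100A3 at 0.602 (0.519 to 0.699). In that pair S100A4, S100A6, S100A10, S100A11 and S100A16 were at 0.738 to 0.851, and S100A13 at 1.07 (1.04 to 1.11). S100A2 and S100A3 were at their lowest in JQ1+Pal of all 8 libraries.

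The lower S100A2 and S100A3 levels with JQ1 went with a smaller share of cells in which a UMI was seen. At 10000 UMIs a cell the mean was 0.119 (JQ1+Pal) to 1.48 (Pre) UMIs for S100A2. For S100A3 it was 0.111 (JQ1+Pal) to 0.796 (DMSO). At such counts the share follows largely from the mean, so it is no separate result and does not show that fewer cells express the genes. After each cell of the study's quality range (1 to 15% mitochondrial UMIs, at least 2000 genes) was thinned at random to 10000 UMIs, so that depth was equal, S100A2 was seen in 64.5% of cells in Pre (exact 95% binomial interval 60.5 to 68.4%), 51.8% in Tax (48.1 to 55.5%), 45.6% in DMSO (40.9 to 50.4%) and 30.5% in Pal (27.0 to 34.2%). It was seen in 19.8% (17.2 to 22.7%) in JQ1-B, 16.3% (13.5 to 19.4%) in JQ1-A, 13.9% (11.2 to 16.9%) in JQ1+Tax and 9.98% (8.17 to 12.0%) in JQ1+Pal. These intervals cover the sampling of cells only. Cells of a library are not replicates, and spread between cultures is left out. The intervals of neighbours overlapped for DMSO and Tax, for JQ1-B and JQ1-A, for JQ1-A and JQ1+Tax, and for JQ1+Tax and JQ1+Pal.

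S100A3 was seen in 49.4% of cells in DMSO (44.7 to 54.2%), 45.1% in Pre (41.0 to 49.3%), 43.5% in Pal (39.7 to 47.4%) and 40.2% in Tax (36.6 to 43.8%). With JQ1 it was 17.2% (14.7 to 19.9%) in JQ1-B, 16.8% (14.0 to 19.9%) in JQ1-A, 12.9% (10.3 to 15.8%) in JQ1+Tax and 9.77% (7.98 to 11.8%) in JQ1+Pal. The intervals of neighbours in this order overlapped both among the 4 libraries without JQ1 and among the 4 with it. All of the former lay above all of the latter, but here too the intervals leave out spread between cultures. Without thinning, the ranges were 22.8 to 32.3% with JQ1 and 64.1 to 72.8% without, and for S100A2 23.2 to 35.5% and 51.9 to 81.1%.

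**Figure D3:**
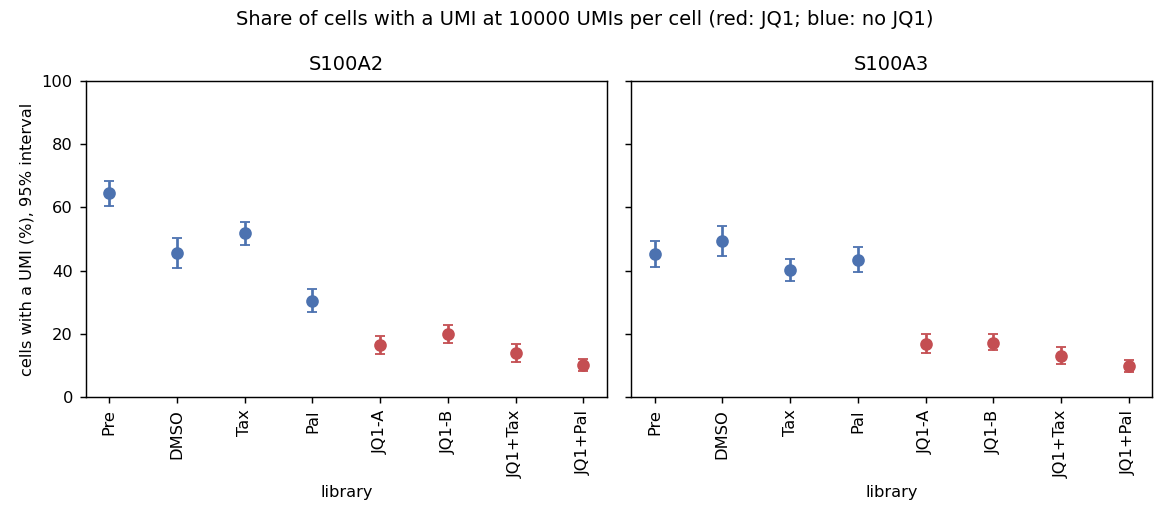
Points give the share of cells with at least 1 UMI of S100A2 (left) or S100A3 (right) in each library, in percent, after thinning to 10000 UMIs a cell, and bars give the exact 95% binomial interval. The bars cover the sampling of cells only, not spread between cultures. The red JQ1 libraries lie between 9.77 and 19.8%, and the blue libraries between 30.5 and 64.5%.

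The other 6 genes were seen in most cells of every library at the same depth. S100A6 had a UMI in 100% of thinned cells, S100A10 in 99.8 to 100%, S100A4 in 97.9 to 99.2%, S100A11 in 93.2 to 99.8%, S100A16 in 93.6 to 99.0% and S100A13 in 84.4 to 93.7%. The share for S100A11 was 99.6 to 99.8% in Pre, DMSO and Tax, 97.9% in Pal and 93.2 to 98.4% with JQ1. All cells were of 1 line, so there was no cell type lacking these genes in which the share that free RNA gives could be measured.

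Within a library the family differed in how widely its levels spread over cells. Excess variation is the squared ratio of SD to mean after removal of the counting part. It was 0.0864 to 0.211 for S100A6, 0.0840 to 0.211 for S100A16 and 0.264 (DMSO) to 0.629 (JQ1+Pal) for S100A4. The background median, taken from genes averaging 0.5 UMIs a cell or more, was 0.0994 to 0.163. S100A2 spread more widely, at 0.745 (Pal) to 2.22 (Tax), and at 46.7 in JQ1-A, where the highest cell held 45 thinned UMIs. S100A3 was at 0.324 (Tax) to 1.28 (JQ1-A). Neither S100A2 nor S100A3 had a value in JQ1+Tax or JQ1+Pal. Their means were under 0.5 UMIs in every JQ1 library, as was that of S100A2 in Pal. In JQ1+Pal the thinned cells had a median of 11 S100A4 UMIs with a 10th to 90th percentile of 3 to 30, and in DMSO 17 with 6 to 31. S100A11 showed 0.0953 to 0.154 in Pre, DMSO and Tax, 0.274 in Pal and 0.178 to 0.322 with JQ1. Its median was 9 thinned UMIs a cell in DMSO and 3 in JQ1+Pal.

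Single cells weighed on the S100A2 level in some JQ1 libraries. In JQ1-A 1 cell held 64 of the 395 S100A2 UMIs (16.2%), and the level was 20.5 CPM without it. In JQ1+Pal 1 cell held 49 of 325 (15.1%), with 11.4 CPM without it. Both values without that cell are lower than with it, further from the libraries without JQ1.

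S100A6, S100A10 and S100A11 went together across cells. Pearson's r of log-normalized UMIs, taken across the 452 to 991 cells of each library that lay in the study's quality range, is given as the mean and range over the 8 libraries. Cells of a library share its culture and handling, and r also carries cell quality and depth. The highest pairs were S100A6 with S100A10 at 0.595 (0.490 to 0.695), S100A10 with S100A11 at 0.545 (0.467 to 0.611), S100A6 with S100A11 at 0.497 (0.356 to 0.587) and S100A6 with S100A13 at 0.455 (0.316 to 0.576). Between any of the 8 genes and all genes of a mean of at least 20 CPM, not matched for level, the median r in a library was -0.016 to 0.060.

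S100A10 and S100A11 were thus close to each other across cells of a library while their levels went opposite ways between libraries with and without JQ1. S100A2 and S100A3 were the reverse case, both lower with JQ1 and with a mean r of 0.064 (-0.028 to 0.198) across cells. At their low counts such an r is no finding. After thinning, S100A6 with S100A10 was at 0.542, S100A10 with S100A11 at 0.435 and S100A6 with S100A13 at 0.337.

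ANXA2 was the gene most like S100A10 across cells among genes of at least 20 CPM outside the family, with a mean r of 0.523 (0.446 to 0.612) over the 8 libraries, and 0.460 (0.379 to 0.548) after thinning. The 95th percentile of r between S100A10 and all genes of at least 20 CPM, the family included, was 0.181 to 0.304. That background was not matched for level, and counting noise lowers r for genes of fewer UMIs. With the other members ANXA2 was at 0.348 for S100A11, 0.322 for S100A6, 0.201 for S100A16, 0.169 for S100A13, 0.128 for S100A4, 0.038 for S100A2 and -0.016 for S100A3. S100A10 was also related to the mitochondrial share of a cell, at -0.435 to -0.225, as was S100A11 at -0.370 to -0.278, while S100A2 was at -0.053 to 0.044.

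**Figure D4:**
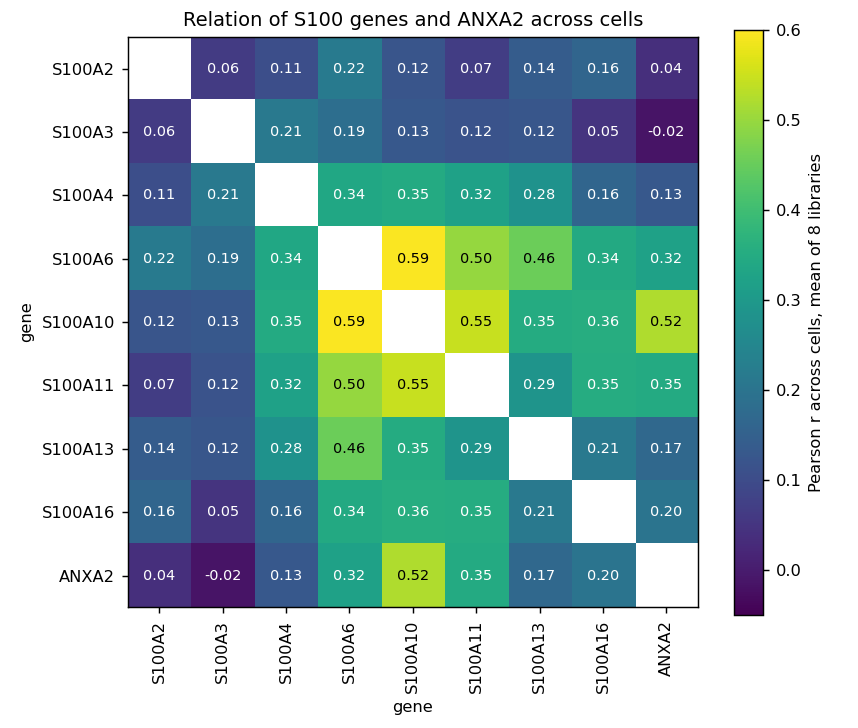
Each square gives Pearson's r between the log-normalized UMIs of 2 genes across cells, as the mean of the 8 libraries. The squares for S100A6, S100A10 and S100A11 with each other lie between 0.497 and 0.595 and S100A10 with ANXA2 at 0.523, while those for S100A2 and S100A3 stay at or under 0.218.

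By the same measure the genes nearest to S100A11 across cells were CFL1 (0.536), MYL6 (0.505) and PRDX1 (0.471), of which CFL1 is the actin-severing protein cofilin. LGALS1, or galectin-1, led for S100A4 (0.338) and S100A6 (0.428), TIMP1 for S100A13 (0.306) and S100A2 (0.148), SH3BGRL3 for S100A16 (0.435) and STAC2 for S100A3 (0.176). After ANXA2, S100A10 was nearest to GSTP1 (0.469) and CD63 (0.468). None of the 8 genes exceeded an r of 0.209 in size with the proliferation genes in any library.

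Over the 8 libraries, the genes whose log2(CPM + 1) was nearest by Pearson's r were ZFAND2A for S100A2 (0.987), TNNT1 for S100A3 (0.994), CCNG1 for S100A4 (0.957), RPL15 for S100A6 (0.955), ANAPC11 for S100A10 (0.971), KLHDC3 for S100A11 (0.995), ARCN1 for S100A13 (0.962) and DHX9 for S100A16 (0.991). With 8 points, which for S100A2, S100A3 and S100A11 fall apart by JQ1, many genes reach such values, and they are given as a description.

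Partners and receptors of S100 proteins, together with plasminogen activation genes, were counted beside the family. Of 21 listed genes 18 were tested, and with JQ1 5 were called higher, 4 lower and 9 not, against 17.8% higher and 19.7% lower over all genes. Their median log2 fold change was 0.04, where it was 0.00 over all genes. For palbociclib none of the 18 was called by edgeR, with 6 at an unadjusted p under 0.05 (22.1% of all genes) and 0 called by DESeq2 (5.54% of all genes), and for paclitaxel none, with 1 (4.25%) and 0 (0.0969%).

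The plasminogen genes were split. PLAT, the tissue-type activator, rose with JQ1 by 1.001 ± 0.153 on the log2 scale (SE, adjusted p = 0.00281). The rise was uneven, with 183 CPM in JQ1+Pal, 101 in JQ1-B, 96.7 in JQ1-A and 64.2 in JQ1+Tax. JQ1+Tax was close to Pal (63.9) and Pre (63.5). PLAU, the urokinase-type activator, fell by 0.44 ± 0.14 (adjusted p = 0.0389), though JQ1+Pal (14.3 CPM) lay above Tax (13.5 CPM). The receptor of PLAU, PLAUR, fell by 0.82 ± 0.17 (adjusted p = 0.00827). Pal, without JQ1, was at 22.05 CPM, close to JQ1-B (21.2 CPM), with Pre, DMSO and Tax at 42.9 to 52.7 CPM.

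Among direct partners, AHNAK, a scaffold that binds the S100A10 and annexin A2 complex, rose by 0.85 ± 0.10 (adjusted p = 0.00122), and MYH9, the myosin heavy chain that S100A4 binds, by 0.60 ± 0.10 (adjusted p = 0.00367). BSG, or basigin, a receptor for extracellular S100A9, rose by 0.57 ± 0.09 (adjusted p = 0.00272). CACYBP, the calcyclin-binding protein named for S100A6, fell by 0.79 ± 0.17 (adjusted p = 0.00925). Its level in Pal, without JQ1, was 133 CPM, close to JQ1-B (129 CPM), with Pre, DMSO and Tax at 267 to 332 CPM.

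Of 22 listed genes that lie near the family on chromosome 1, 20 were tested, and with JQ1 4 were called higher, 4 lower and 12 not, beside 17.8% higher and 19.7% lower over all genes, with a median log2 fold change of -0.07. TUFT1 (1.10 ± 0.19, adjusted p = 0.00466), GATAD2B (0.68 ± 0.19, adjusted p = 0.0224), POGZ (0.65 ± 0.14, adjusted p = 0.00861) and RFX5 (0.56 ± 0.17, adjusted p = 0.0302) rose. ILF2 (-0.75 ± 0.11, adjusted p = 0.00220), MRPL9 (-0.71 ± 0.10, adjusted p = 0.00222), SLC39A1 (-0.60 ± 0.11, adjusted p = 0.00478) and JTB (-0.41 ± 0.14, adjusted p = 0.0450) fell. The libraries with and without JQ1 overlapped for GATAD2B, POGZ, RFX5 and JTB. Pal, without JQ1, was the highest library for GATAD2B (13.4 CPM) and RFX5 (15.8 CPM). TUFT1 did not overlap but was low, at 2.75 (Tax) to 6.77 CPM (JQ1+Pal).

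Other S100 genes were near or under the limit of detection. S100A5 was at 0.743 (JQ1+Pal) to 3.11 CPM (DMSO) and seen in 0.720 to 3.83% of thinned cells, S100A14 at 0.289 to 0.990 CPM, S100P at 0.0413 to 1.99 CPM and S100A1 at up to 0.309 CPM. S100PBP, which encodes an S100P-binding protein and is no S100 gene itself, was at 7.14 to 11.7 CPM, and its JQ1 log2 fold change of -0.09 ± 0.16 (SE) was not called (adjusted p = 0.660).

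S100A8 and S100A9, which form the secreted dimer calprotectin, were uneven between libraries. Over all cells S100A8 counted 83 UMIs in Pal (5.01 CPM), 30 in Tax (1.65 CPM), 1 each in JQ1+Tax and JQ1-B and 0 in Pre, DMSO, JQ1-A and JQ1+Pal. Over all cells S100A9 counted 70 UMIs in Pal (4.23 CPM), 37 in Tax (2.04 CPM), 18 in JQ1+Tax (1.26 CPM), 5 in Pre, 2 in JQ1-B and 0 in DMSO, JQ1-A and JQ1+Pal. Pal was thus the highest for both genes, and for the 0 of 445, 650 and 972 thinned cells of DMSO, JQ1-A and JQ1+Pal the exact 95% binomial interval reaches 0.826, 0.566 and 0.379% (0.674, 0.462 and 0.309% by the rule of 3 counts).

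In Pal the UMIs of S100A8 and S100A9 came from 54 of 673 cells, of which 17 had both genes and none more than 12 UMIs. In Tax they came from 6 of 740 cells, and 1 cell held 54 of the 67 UMIs. In JQ1+Tax they came from 15 of 620 cells with at most 2 UMIs each. In Pal the summed level of SAA1, an acute-phase gene, was 784 CPM in the 54 cells and 208 CPM in the rest, and the median over cells was 268 and 43.7 CPM. This was not particular to Pal. The summed levels were 157 and 17.0 CPM in Tax, 315 and 51.7 CPM in JQ1+Tax, and 385 (1 cell) and 64.9 CPM in Pre. In JQ1-B they went the other way, at 0 (2 cells) and 3.76 CPM.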

How the data were processed

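The 8 members and the partner, neighbour and marker lists were chosen with earlier results of these data known. Single-cell libraries were made with a 3′ kit that counts UMIs, and per the study's methods the authors aligned reads to hg19 and counted them with Cell Ranger before filtering in Seurat. The deposited table holds whole UMI counts per gene and cell, for genes seen in at least 3 cells, with no normalization, and 0 value columns belonged to no library of the series. It still held cells outside the study's filter of 1 to 15% mitochondrial UMIs and at least 2000 genes, which 5575 of 5738 cells met. No doublet caller was run.

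Counts of all cells were summed per library. Genes with at least 5 CPM in at least 2 libraries were tested with edgeR 4.0.16 (glmQLFit and glmQLFTest, TMM, R 4.3.3). Terms were JQ1, palbociclib and paclitaxel over all 8 libraries, which leaves 4 residual degrees of freedom, with interactions in a second fit. The SE printed with a log2 fold change was not estimated by the fit. It is the size of that change over the square root of the test's F statistic. Replicate cultures were pooled within a library, and 1 JQ1+Pal culture had been lost, so the spread is that between libraries of different conditions. On simulated counts for 9288 genes, in which 200 changed by a log2 of 2, 100% were recovered for the JQ1 term, with 8 unchanged genes called. Every simulated gene had the same spread, and conditions differed in nothing else. The simulation thus checks that the fit runs and does not show how smaller changes, such as those of most S100 genes, are recovered. Cells in the study's range were thinned to 10000 UMIs, which left 5487. Alternatives were RLE scaling, library totals, no low-count filter, DESeq2 1.42.0, cells in the range only, a term for the experiment, 3 matched pairs (DMSO with JQ1-A, Tax with JQ1+Tax, Pal with JQ1+Pal), the JQ1 and paclitaxel experiment alone, and leaving out each library.

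Named genes were the members, other S100 genes and ANXA2, the called partners and neighbours (at most 5 each way, of which 1 counted partner is not reported here by name), and the nearest 3 genes by likeness, of which the first is given for each member and the rest for S100A10 and S100A11. Positions are from GENCODE on GRCh37, and promoters from RefSeq on GRCh38.p14, where all 8 members matched.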

Additional observations from a re-analysis of the deposited data

Results flagged for a closer look

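Within groups of libraries with or without a drug, 32 in all over the 8 genes, 2 held a library whose distance to its nearest neighbour took most of the group's range (Dixon's criterion at 95%), and chance flags about 1 in 20 groups. S100A4 was at 1269 CPM in Tax, below the other 5 libraries without palbociclib. S100A6 was at 5561 CPM in JQ1+Pal, below the other 5 libraries without paclitaxel.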

How the results depend on the processing

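In all settings run for JQ1, S100A2 (-2.23 to -1.74) and S100A3 (-1.93 to -1.55) stayed called and lower. No member's called value changed sign in any setting. S100A11 and S100A10 lost the call with the experiment as a term and in the matched pairs, S100A4 and S100A13 also with library totals and without each library other than Pal and JQ1+Pal, and S100A13 in the JQ1 and paclitaxel experiment alone. Those fits use fewer samples or leave fewer degrees of freedom, apart from library totals. S100A6 became called without Pal or JQ1+Pal and in that experiment alone (0.53), and S100A16 there (-0.52). Called interactions appeared for S100A2 with palbociclib (0.88), S100A3, S100A6 and S100A13 without DMSO, for S100A6 and, with paclitaxel, S100A2 (-1.29) and S100A16 without Pre, and for S100A16 with paclitaxel without the low-count filter (-0.72). Thinning moved 10 of 28 member pairs across cells by over the spread between libraries. The numbers of genes called moved more, and the cause was not tested. For JQ1 (3488) they were 463 with the experiment as a term, 361 in matched pairs and 1760 to 4190 without 1 library. For palbociclib (26) they were 205 without the filter, 515 with DESeq2, 0 with the experiment term and 0 to 938 without 1 library. For paclitaxel (0) they were 2, 9 and 0 to 4 (no filter, DESeq2, 1 library left out). For JQ1 by palbociclib (1) they were 689, 33 and 0 to 1112, and for JQ1 by paclitaxel (36) 724, 80 and 1 to 1141, in the same order. The labels give no replicate numbers that pair libraries, so the only pairing was that by matched drug. With 1 library a condition, S100A8, S100A9 and the pairs of libraries have no replicate check, and counts under about 3 UMIs a library limit the rarer S100 genes.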
